A study of Homo sapiens with 9 samples.

Results

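Receptor tyrosine kinases and STAT3 were examined in MDA-MB-231 cells, an established human triple-negative breast cancer line, after treatment with the copper chelator TEPA. The 10 genes were chosen by name from the 59453 gene names of the raw count table: the receptors EGFR, ERBB2, ERBB3, AXL, MET, IGF1R, PDGFRB, FGFR1 and EPHA2, and the transcription factor STAT3. All 10 passed the filter on low counts and were among the 16556 genes tested. The study asked how copper chelation acts on epithelial-mesenchymal transition and TGF-β signaling. RNA-Seq was performed on 3 untreated libraries, 3 libraries after TEPA for 8 h and 3 after TEPA for 24 h, all grown in DMEM with FBS, and a single untreated group served both times. The labels give 8 mM TEPA, while the RNA methods of the study give a lower concentration. The study spells TEPA out as one polyamine in its list of abbreviations and as another among its reagents, so the compound is called TEPA here. No source used here states that the 3 libraries of a group came from separate cultures, so p-values measure the spread between these libraries, which may be technical.

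Receptor tyrosine kinases span the plasma membrane, bind a ligand outside the cell and phosphorylate themselves and their adaptors inside it, which passes the signal to the RAS-ERK, PI3K-AKT and PLCγ routes. STAT3 is a cytoplasmic transcription factor that is phosphorylated by JAK kinases at receptors of the IL6 family, and also downstream of receptors such as EGFR, and then enters the nucleus. In triple-negative breast cancer, which lacks the estrogen and progesterone receptors and ERBB2 amplification, EGFR, AXL, MET and EPHA2 are commonly expressed receptors. RNA-Seq measures their transcripts and not their protein or phosphorylation.

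The promoters of 8 of the 10 genes, all but ERBB3 and FGFR1, were matched in a RefSeq table for GRCh38.p14 that holds 250 bases before and 50 bases after each start site. For 6 of them, chosen because their levels turned between 8 h and 24 h or were highest at 24 h, 130 bases before the first annotated start are shown in lower case, 5′ to 3′ on the strand of the gene. Capitals mark the GC box GGGCGG, the promoter element CCAAT, and the cyclic AMP response element TGACGTCA, searched on both strands, so that CCGCCC is the GC box and ATTGG the CCAAT element of the other strand. EGFR (chr7:55018887-55019016, plus strand), AXL (chr19:41219093-41219222, plus strand) and MET (chr7:116672066-116672195, plus strand) rose at 8 h and fell at 24 h, and PDGFRB (chr5:150155873-150156002, minus strand), EPHA2 (chr1:16156070-16156199, minus strand) and STAT3 (chr17:42388541-42388670, minus strand) were higher at 24 h.
EGFR: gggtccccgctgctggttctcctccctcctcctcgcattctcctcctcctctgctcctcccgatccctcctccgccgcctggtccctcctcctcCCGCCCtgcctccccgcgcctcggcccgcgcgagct
AXL: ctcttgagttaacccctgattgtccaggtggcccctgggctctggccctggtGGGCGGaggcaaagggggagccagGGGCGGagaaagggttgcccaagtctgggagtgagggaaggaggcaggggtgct
MET: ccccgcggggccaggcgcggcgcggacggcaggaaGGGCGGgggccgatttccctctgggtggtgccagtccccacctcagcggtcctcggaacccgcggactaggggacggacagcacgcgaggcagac
PDGFRB: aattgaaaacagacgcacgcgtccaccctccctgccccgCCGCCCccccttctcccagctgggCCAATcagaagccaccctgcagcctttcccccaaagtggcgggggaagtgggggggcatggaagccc
EPHA2: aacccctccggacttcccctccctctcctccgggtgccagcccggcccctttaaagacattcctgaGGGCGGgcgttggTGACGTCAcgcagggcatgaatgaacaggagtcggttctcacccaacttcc
STAT3: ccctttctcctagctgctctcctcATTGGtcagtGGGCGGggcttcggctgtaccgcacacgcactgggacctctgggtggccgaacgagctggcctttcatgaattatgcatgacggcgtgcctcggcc

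The GC box was found in 7 of the 8 matched windows of 300 bases and in 45% of the 35116 promoters of the table. CCAAT was found in 3 of the 8, those of ERBB2, PDGFRB and STAT3, and in 34.6% of all promoters. In PDGFRB it lay at bases -94 to -90, and in STAT3 at -204 to -200 and, past the stretch shown, at -79 to -75, counted from -1 just before the RefSeq start site. TGACGTCA was found only in the window of EPHA2 among the 8, at bases -51 to -44, and in 1.85% of all promoters. These 3 motifs were picked after the promoters were read. The STAT motif TTCNNNGAA (7.66% of all promoters) and the AP-1 motifs TGACTCA and TGAGTCA (4.95%) were in 0 of the 8 windows, which says only that these letters are not in these windows. EGFR held 33 CG pairs in its window, MET 30, STAT3 23, EPHA2 20, PDGFRB 11 and AXL 7.

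Library totals were 34633755 to 49342659 counts, and TMM factors ran from 0.978 to 1.039. Mitochondrial genes took 1.79 to 2.91% of the counts in untreated cells, 3.61 to 4.02% at 8 h and 1.89 to 2.02% at 24 h, and their part in the results was not tested. Levels are given as CPM, the count scaled to a common library size with the TMM factors applied. The basal and mesenchymal markers VIM, CD44, CAV1 and MSN had mean levels of 3816, 933, 718 and 593 CPM over the 9 libraries, and KRT18, a keratin of simple and luminal epithelium, was at 269.9 CPM. Their summed level, KRT18 included, was 5848 to 6285 CPM untreated, 6934 to 7112 CPM at 8 h and 5711 to 5967 CPM at 24 h. VIM made up most of it, with means of 3674 CPM untreated, 4387 CPM at 8 h and 3388 CPM at 24 h. Of the luminal markers, PGR had 0 counts in all 9 libraries and ESR1 at most 0.24 CPM, and the summed level of ESR1, PGR, GATA3, FOXA1 and EPCAM was 14.3 to 15.6 CPM untreated, 16.1 to 16.7 CPM at 8 h and 18.5 to 19.0 CPM at 24 h. GATA3 made up most of this sum, with means of 10.6 CPM untreated, 11.5 CPM at 8 h and 14.1 CPM at 24 h. Of the markers of other cell types, CD3E had 0 counts in all 9 libraries, and PTPRC, CDH5 and DCN reached at most 0.133, 0.0800 and 0.0785 CPM. The summed level of these markers with CD14, PECAM1 and COL1A1 was 19.6 to 23.5 CPM untreated, 33.9 to 34.5 CPM at 8 h and 29.7 to 31.3 CPM at 24 h, nearly all of it from the last 3. CD14 and PECAM1 were lower at 8 h (log2 fold changes -2.32 and -1.76), and COL1A1 was higher (1.25). In bulk RNA, fewer cells with a transcript and less of it per cell cannot be told apart.

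Untreated replicate 1 stood at the edge of its group for most of the 10 genes. It had the lowest untreated EGFR, AXL, MET and FGFR1 and the highest untreated ERBB2, IGF1R, PDGFRB and STAT3. Its mean distance from the other untreated libraries, as the root mean square difference in log2 CPM over all tested genes, was 0.359, against 0.329 and 0.339 for replicates 3 and 2. By the chi-square of raw counts per degree of freedom it stood further out, at 20.5 against replicate 2 and 8.26 against replicate 3. The value was 6.43 between replicates 2 and 3, and 2.35 to 7.36 within the treated groups. Fold changes given below that no longer passed the test without it are shown with both values (not checked for BCL3, SOCS3, ERRFI1 and PTPRJ). The size of others moved too while they still passed. With other processing or 1 library left out, the 8 h log2 fold change of AXL ran from 0.22 to 0.36. That of CEBPD ran from -1.48 to -1.10 and that of IL6 from -1.10 to -0.63. At 24 h AXL ran from -0.32 to -0.18 and CEBPD from 0.41 to 0.78.

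Levels differed between the genes widely. Scaled by exon length, as CPM per kilobase of exon (FPKM), the untreated levels were 157 ± 0.701 (SD, n = 3) for EPHA2 and 133 ± 14.3 for AXL. MET followed at 30.8 ± 1.21, EGFR at 27.3 ± 2.45, STAT3 at 23.3 ± 0.922 and FGFR1 at 12.3 ± 0.482. ERBB2 was at 7.89 ± 0.495, PDGFRB at 4.79 ± 0.897, IGF1R at 3.51 ± 0.257 and ERBB3 at 0.0724 ± 0.0169. No neighbours in this order overlapped between the untreated libraries. At 8 h AXL (165 ± 1.56) stood above EPHA2 (154 ± 2.20), and PDGFRB (3.80 ± 0.347) and IGF1R (3.37 ± 0.110) overlapped. At 24 h EPHA2 (190.2 ± 9.85) was again first, STAT3 (27.7 ± 0.764) stood above MET (26.2 ± 0.201), and PDGFRB (13.2 ± 0.610) had passed ERBB2 (5.13 ± 0.0939) and FGFR1 (8.70 ± 0.318). The exon length is the union over all transcripts of a gene and overstates the length of genes with many isoforms, so comparisons between genes are approximate. In CPM, STAT3 was above MET already in untreated cells (means of 262 and 222 CPM). FGFR1 was still above PDGFRB at 24 h (149.6 and 94.5 CPM). The mean of AXL was above that of EPHA2 in untreated cells too (685 and 650 CPM). These changes of order thus depend on the exon lengths used.

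Together the 9 receptors held 80.0 ± 1.26% of the summed FPKM of 58 receptor tyrosine kinases in untreated cells, 82.1 ± 0.105% at 8 h and 79.7 ± 0.337% at 24 h. EPHA2 and AXL made up most of it. The share of EPHA2 was 33.3 ± 0.917% untreated, 30.55 ± 0.234% at 8 h and 39.8 ± 0.805% at 24 h, whereas that of AXL was 28.3 ± 2.20%, 32.7 ± 0.116% and 23.7 ± 0.533%. The share of PDGFRB was 1.02 ± 0.224% untreated, 0.751 ± 0.0616% at 8 h and 2.77 ± 0.0482% at 24 h. The summed FPKM of the 58 receptors was 471 ± 14.4 untreated, 505 ± 5.00 at 8 h and 478 ± 15.3 at 24 h.

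**Figure D1:**
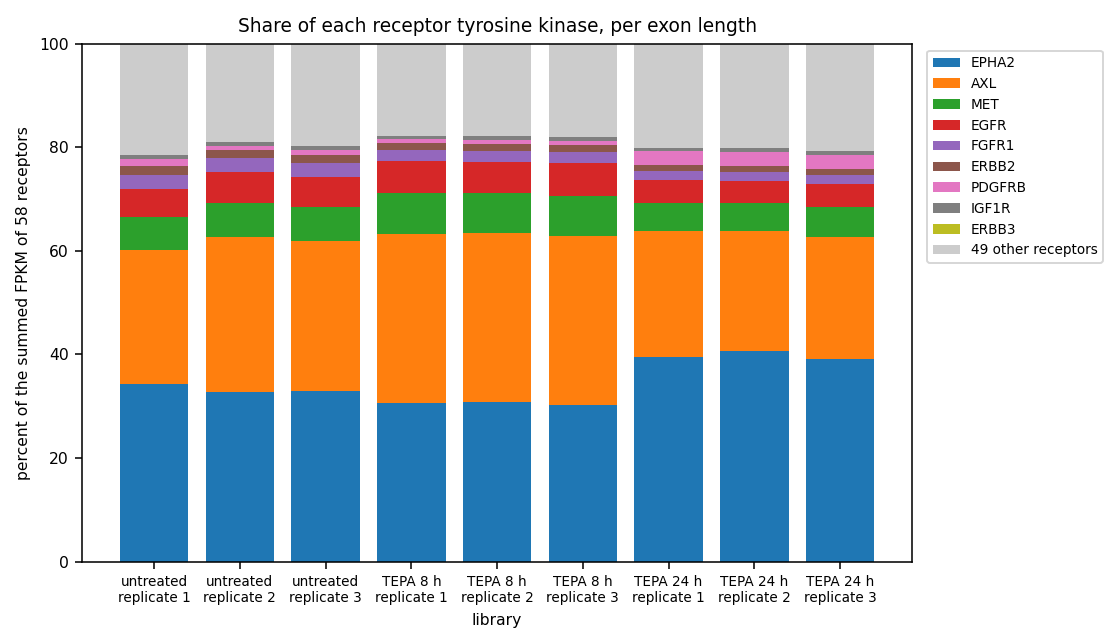
Share of each of the 9 receptors in the summed FPKM of 58 receptor tyrosine kinases (y axis, percent, starting at 0) in each of the 9 libraries (x axis), with the other 49 receptors in grey. The part of EPHA2 is larger in every 24 h library than in any other (39.8 ± 0.805%), where that of AXL is smaller (23.7 ± 0.533%).

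At 8 h, 3 of the 10 genes (EGFR, AXL and MET) rose and 4 (ERBB2, PDGFRB, FGFR1 and STAT3) fell against untreated cells at an adjusted p under 0.05, while 25.2% of all tested genes were higher and 24.5% lower. 0 of the 10 passed a log2 fold change of 0.5 in addition, which 17.8% of all genes did. The counts are for edgeR's quasi-likelihood test with Benjamini-Hochberg adjustment over all genes tested. At 24 h, PDGFRB, EPHA2 and STAT3 rose and the 5 genes EGFR, ERBB2, AXL, MET and FGFR1 fell (25.7% and 26.8% of all genes), and 3 of these, PDGFRB, ERBB2 and FGFR1, passed the fold limit (18.7% of all genes). Between 24 h and 8 h, 3 genes were higher at 24 h and 5 lower (26.0% and 28.8% of all genes), and 4 passed the fold limit (21.2% of all genes). The median log2 fold change of the 10 was -0.10 at 8 h, -0.23 at 24 h and -0.37 between the times, against -0.0013, 0.0023 and -0.0155 over all tested genes. The libraries of the groups compared did not overlap for 6, 9 and 9 of the 10 genes, and for 57.8%, 57.2% and 62.0% of all tested genes. Comparisons of 8 h and of 24 h with untreated cells share the untreated libraries. These cannot match both times, so time in culture and TEPA may not be told apart in these comparisons either. A permutation of 3 libraries against 3 cannot give a p under 0.1.

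**Figure D2:**
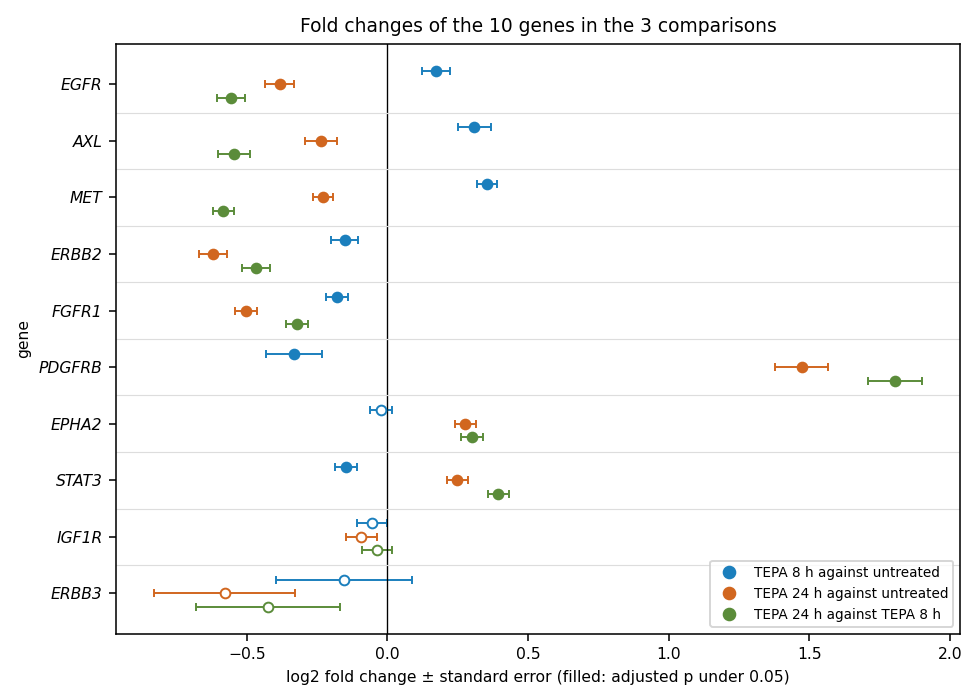
Log2 fold change (x axis) of each of the 10 genes (y axis) in TEPA 8 h against untreated, TEPA 24 h against untreated and TEPA 24 h against TEPA 8 h, with standard errors as bars and filled points for an adjusted p under 0.05. EGFR, AXL and MET lie to the right of 0 at 8 h and to the left at 24 h, and PDGFRB has the largest fold change at 24 h (1.47).

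EGFR, AXL and MET rose at 8 h and fell below the untreated level at 24 h. EGFR, the receptor of EGF, TGFA and AREG, spans chr7:55019017-55211628 on the plus strand. Its level was 391, 466 and 447 CPM in untreated cells, 483, 484 and 504 CPM at 8 h, and 335, 332 and 333 CPM at 24 h. Every 8 h library lay above every untreated one, and every 24 h library below. Its log2 fold change was 0.17 (SE 0.0506, adjusted p = 0.00999) at 8 h and -0.38 (SE 0.0508, adjusted p = 1.22e-05) at 24 h. The 8 h rise was the smaller of the changes and moved with single libraries. It was 0.10 and still passed (adjusted p = 0.0237) without untreated replicate 1. Without TEPA 8 h replicate 3 it was 0.15 and no longer passed (adjusted p = 0.0584).

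AXL (chr19:41219223-41261766, plus strand) is the receptor of GAS6. AXL was measured at 602, 742 and 709.7 CPM untreated, 842, 857 and 847 CPM at 8 h, and 596, 588 and 560.4 CPM at 24 h. The untreated libraries were the most spread, with replicate 1 close to the 24 h libraries but above them. AXL was higher at 8 h (log2 fold change 0.31, SE 0.0577, adjusted p = 0.000356) and lower at 24 h (-0.24, SE 0.0577, adjusted p = 0.00278).

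MET (chr7:116672196-116798377, plus strand), the receptor of hepatocyte growth factor, had the closest untreated replicates of the 3. Its levels were 213, 229 and 225 CPM untreated, 286, 280.0 and 286 CPM at 8 h, and 191, 189 and 189 CPM at 24 h. The 3 groups did not overlap. MET had a log2 fold change of 0.35 (SE 0.0361, adjusted p = 1.11e-06) at 8 h and -0.23 (SE 0.0362, adjusted p = 6.745e-05) at 24 h. Over the 9 libraries, the centred log2 CPM of AXL and MET differed by a root mean square of 0.0565, the closest pair among the 10 genes.

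ERBB2 and FGFR1 fell at both times, further at 24 h. ERBB2 (chr17:39687914-39730426, plus strand) has no known ligand of its own and signals as a partner of the other ERBB receptors. Its levels were 87.1, 77.3 and 79.7 CPM untreated, 69.5, 75.0 and 75.2 CPM at 8 h, and 51.9, 53.8 and 53.1 CPM at 24 h. The groups stood in steps with no overlap, although the highest 8 h library came within a few CPM of the lowest untreated one. ERBB2 had a log2 fold change of -0.15 (SE 0.0487, adjusted p = 0.01655) at 8 h and -0.62 (SE 0.0493, adjusted p = 5.205e-08) at 24 h. The 8 h decrease was -0.10 (adjusted p = 0.069) without untreated replicate 1 and -0.12 (adjusted p = 0.0737) without TEPA 8 h replicate 1.

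FGFR1, a receptor of fibroblast growth factors, lies on chromosome 8 from 38400215 to 38468834 on the minus strand. It was at 203, 219 and 213 CPM untreated, 187, 188 and 186 CPM at 8 h, and 149, 156 and 145 CPM at 24 h. Each group lay wholly below the one before. FGFR1 had a log2 fold change of -0.18 (SE 0.0390, adjusted p = 0.00132) at 8 h and -0.50 (SE 0.0392, adjusted p = 4.295e-08) at 24 h.

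ERBB3 (chr12:56076799-56103505, plus strand), a neuregulin receptor whose own kinase is weak, was barely expressed. Its raw counts were 30, 31 and 42 untreated, 26, 31 and 30 at 8 h, and 26, 24 and 23 at 24 h. These were 0.7998, 0.679 and 1.07 CPM untreated, 0.650, 0.810 and 0.816 CPM at 8 h, and 0.510, 0.556 and 0.640 CPM at 24 h. All 24 h libraries lay below the untreated ones, but the difference did not pass the test (log2 fold change -0.58, SE 0.249, 95% interval -1.11 to -0.05, adjusted p = 0.0629). When 1 library was left out it ran from -0.73 (adjusted p = 0.0352, without untreated replicate 2) to -0.38 (adjusted p = 0.272, without untreated replicate 3). At 8 h the log2 fold change was -0.15 (SE 0.243, 95% interval -0.67 to 0.36, adjusted p = 0.626), and it ran from -0.31 to 0.0347 when 1 library was left out.

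IGF1R (chr15:98648539-98964530, plus strand), the receptor of insulin-like growth factor, did not pass the test in any comparison. Its levels were 52.7, 45.5 and 48.5 CPM untreated, 45.3, 48.2 and 47.6 CPM at 8 h, and 44.1, 47.4 and 46.0 CPM at 24 h. The 3 groups overlapped. The log2 fold change was -0.05 at 8 h (95% interval -0.17 to 0.06, adjusted p = 0.426) and -0.09 at 24 h (95% interval -0.21 to 0.02, adjusted p = 0.165). When 1 library was left out the 24 h value ran from -0.14 (adjusted p = 0.0377, without untreated replicate 2) to -0.038 (adjusted p = 0.552, without untreated replicate 1).

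**Figure D3:**
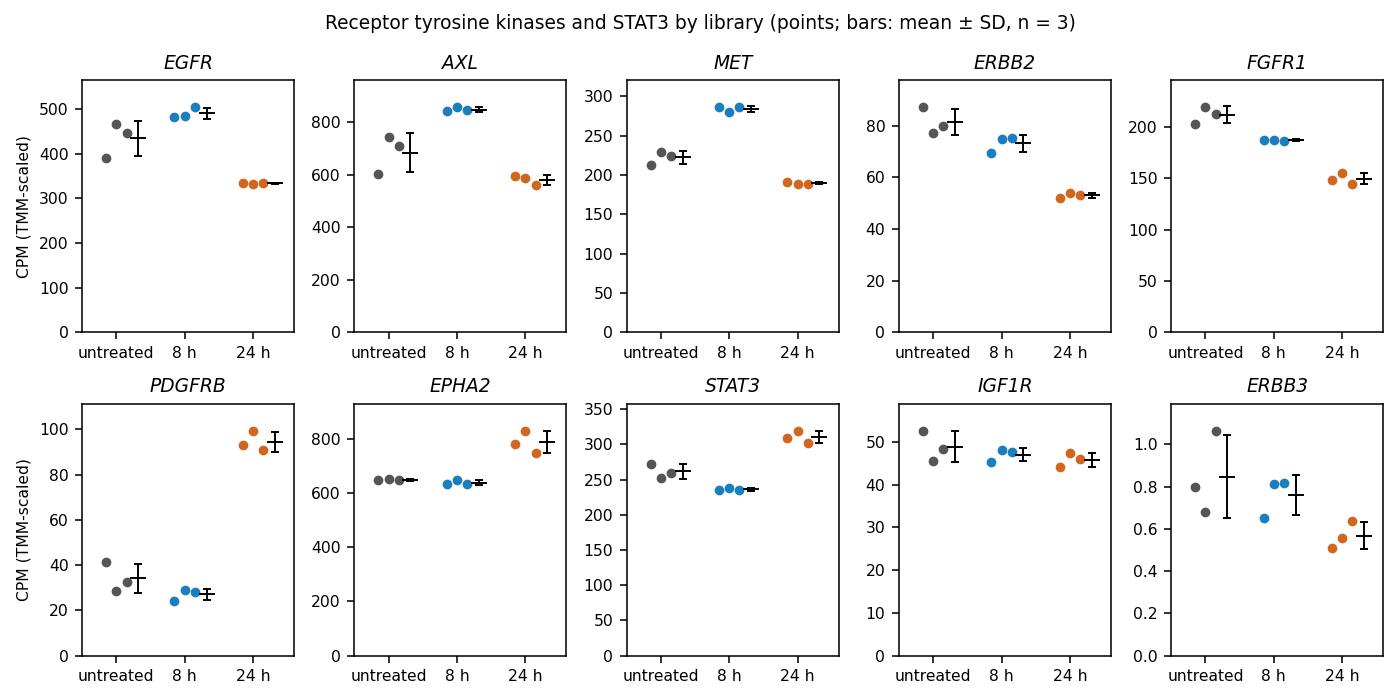
Level of each of the 10 genes in CPM (y axes, starting at 0 and scaled to each gene) in the 3 libraries of each group (points), with the mean ± SD (n = 3) beside them. All 3 libraries at 24 h lie above the others for PDGFRB (91.1 to 99.4 CPM), EPHA2 and STAT3, and below them for EGFR, AXL, MET, ERBB2 and FGFR1.

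PDGFRB showed the largest change of the 10 genes. It is the receptor of the platelet-derived growth factors B and D, is used as a marker of fibroblasts and pericytes, and spans chr5:150113839-150155872 on the minus strand. Its levels were 41.2, 28.7 and 32.7 CPM untreated, 24.3, 28.9 and 28.1 CPM at 8 h, and 93.1, 99.4 and 91.1 CPM at 24 h. At 24 h all 3 libraries stood far above every other library. PDGFRB was 2.78-fold higher than in untreated cells at 24 h (log2 fold change 1.47, SE 0.0942, adjusted p = 4.75e-09), and 97.6% of all tested genes had a fold change of that size or smaller. At 8 h it was lower (-0.33, SE 0.1004, adjusted p = 0.0122), but the groups overlapped. That decrease was -0.18 (adjusted p = 0.0507) without untreated replicate 1 and -0.26 (adjusted p = 0.065) without TEPA 8 h replicate 1.

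DCN, a proteoglycan of fibroblasts, had 0 counts in 8 of the 9 libraries, and DCN and COL1A1 were the fibroblast genes among the marker genes of other cell types. COL1A1, the main chain of type I collagen, was at 13.7 ± 0.50 CPM untreated, 32.4 ± 0.552 CPM at 8 h and 18.0 ± 0.714 CPM at 24 h, highest at 8 h. CSF1R, the receptor of macrophage colony-stimulating factor, lies 466 bases from PDGFRB on the same strand of chromosome 5. It was at 14.2, 12.6 and 13.6 CPM untreated, 6.87, 8.08 and 7.37 CPM at 8 h, and 17.1, 17.1 and 16.8 CPM at 24 h, so that it fell at 8 h (log2 fold change -0.85, SE 0.0771, adjusted p = 3.34e-07) and rose at 24 h (0.34, SE 0.0705, adjusted p = 0.000827). PECAM1, an endothelial adhesion molecule, was at 3.59 ± 0.563 CPM untreated, 1.06 ± 0.201 CPM at 8 h and 8.13 ± 0.928 CPM at 24 h, and the part of such markers in the PDGFRB result was not tested.

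EPHA2, the receptor of A-type ephrins, had the highest FPKM of the untreated receptors and spans chr1:16124337-16156069 on the minus strand. Its levels were 647, 653 and 649 CPM untreated, 633, 649.8 and 636 CPM at 8 h, and 781, 831 and 750.2 CPM at 24 h. The untreated and 8 h libraries overlapped within a narrow range, and all 24 h libraries were higher. The log2 fold change was -0.02 at 8 h (95% interval -0.11 to 0.06, adjusted p = 0.654) and 0.28 at 24 h (SE 0.03875, adjusted p = 2.021e-05).

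STAT3 (chr17:42313324-42388540, minus strand) was lower than untreated at 8 h and higher at 24 h. Its levels were 273, 252 and 260.1 CPM untreated, 235, 238 and 235 CPM at 8 h, and 309.8, 319.5 and 302 CPM at 24 h. The 3 groups did not overlap. The log2 fold change was -0.15 (SE 0.0375, adjusted p = 0.00409) at 8 h and 0.25 (SE 0.0373, adjusted p = 4.24e-05) at 24 h. STAT5A, a related factor encoded 1380 bases away on the other strand, was at 19.5, 15.5 and 16.9 CPM untreated, 16.6, 17.0 and 15.6 CPM at 8 h, and 29.8, 28.7 and 27.0 CPM at 24 h. It rose at 24 h (log2 fold change 0.73, SE 0.0746, adjusted p = 8.46e-07), while its 8 h value was -0.07 (adjusted p = 0.482). EPHA2 and STAT3 were each other's nearest among the 10 genes, with a root mean square difference of 0.06295 in centred log2 CPM over the 9 libraries.

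The genes most like each of the 10 were sought among the genes with a mean of at least 100 counts (11919 beside most members), by the same root mean square difference. POLR1E and IFRD2 were nearest to EGFR (0.0285 and 0.0332), PSMD2 and PA2G4 to AXL (0.0342 and 0.03797), and PA2G4 and TICRR to MET (0.0304 and 0.0347). ABCC3 and NME4 were nearest to ERBB2, and SDC1 and LIF to FGFR1, with SDC1 the closest match to any of the 10 (0.0128). P2RY6 and BFSP1 were nearest to PDGFRB at 0.0879 and 0.118, and DHRS4-AS1 and ADGRL2 to ERBB3 at 0.0974 and 0.135. CAVIN1 and TBC1D7 were nearest to EPHA2, TM7SF3 and PSME2 to STAT3, and WIPF1 and TATDN3 to IGF1R. These are descriptions over 9 libraries that share the treatment groups.

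Other receptor tyrosine kinases moved in both directions. Of 49 listed, 23 were tested, of which 6 were higher and 7 lower at 8 h (25.2% and 24.5% of all genes) and 7 higher and 4 lower at 24 h (25.7% and 26.8%). The most abundant were the ephrin receptors EPHB2, which rose from 114 ± 4.99 CPM untreated to 155 ± 5.23 CPM at 8 h (log2 fold change 0.44, adjusted p = 6.63e-07) and stood at 133 ± 4.22 CPM at 24 h (0.21, adjusted p = 0.000515), and EPHB4, which fell at 8 h (-0.25, adjusted p = 0.0001797). EPHA4 had the largest rise at 8 h (0.82, SE 0.103, adjusted p = 8.99e-06), from 4.80, 5.74 and 5.43 CPM to 10.0, 9.28 and 8.84 CPM, and CSF1R the largest fall. At 24 h the largest rise was that of STYK1 (0.59, SE 0.0840, adjusted p = 2.625e-05) and the largest fall that of PTK7, a receptor of the WNT planar polarity route without an active kinase (-0.59, SE 0.0710, adjusted p = 4.58e-06). Largest is meant here among called genes with a mean count of 100 or more whose groups did not overlap.

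Among the ligands of the receptors, TGFA and AREG fell at 8 h. Of 23 listed, 16 were tested, of which 2 were higher and 8 lower at 8 h (25.2% and 24.5% of all genes), and 7 higher and 7 lower at 24 h (25.7% and 26.8%), and the medians of their log2 fold changes were -0.39 and -0.15. TGFA, a ligand of EGFR, was at 137, 125 and 131 CPM untreated, 76.0, 75.6 and 79.1 CPM at 8 h, and 103, 102 and 102 CPM at 24 h. It fell at both times (log2 fold changes -0.77 and -0.36, SE 0.0410 and 0.0403, adjusted p = 1.83e-09 and 2.05e-06), while EGFR rose at 8 h. AREG, another EGFR ligand, fell at 8 h (-0.83, SE 0.129, adjusted p = 7.26e-05) from 4.81 ± 0.765 to 2.71 ± 0.172 CPM. NRG1, a neuregulin bound by ERBB3, rose at both times (0.32 and 0.24, adjusted p = 3.47e-05 and 0.000424), whereas NRG2, another neuregulin, with 21 to 67 counts a library, fell at both (-0.80 and -0.72, adjusted p = 0.00677 and 0.0107).

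GAS6, the ligand of AXL, was at 75.5, 87.2 and 86.5 CPM untreated, 85.1, 84.6 and 89.2 CPM at 8 h, and 53.1, 51.8 and 50.8 CPM at 24 h. It thus fell at 24 h (log2 fold change -0.68, SE 0.0521, adjusted p = 3.575e-08), the time at which AXL fell, and its 8 h value was 0.05 (adjusted p = 0.404). PDGFD, a ligand of PDGFRB, rose at 24 h (0.57, SE 0.111, adjusted p = 0.000465) from 2.86 ± 0.158 to 4.24 ± 0.140 CPM, the time at which PDGFRB rose. Not all ligands moved with their receptor. FGF1, at 1.22 ± 0.176 CPM untreated, rose at both times (1.24 and 0.69, adjusted p = 1.765e-05 and 0.00325), while FGFR1 fell. EGF, at 1.88 ± 0.153 CPM untreated, fell at 8 h and rose at 24 h (-0.40 and 0.79, adjusted p = 0.0379 and 0.000137), opposite to EGFR.

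All 13 adaptors were tested, with 4 higher and 7 lower at 8 h (25.2% and 24.5% of all genes), and 3 higher and 4 lower at 24 h (25.7% and 26.8%). The count of 4 was 2 without TEPA 8 h replicate 1 or without the filter on low counts, and the count of 3 was 6 with upper-quartile factors. PLCG1, the phospholipase that binds activated receptors, rose at both times, from 157, 161 and 162 CPM untreated to 215.5, 223 and 222 CPM at 8 h (log2 fold change 0.46, SE 0.0342, adjusted p = 4.82e-08) and 188, 184 and 182 CPM at 24 h (0.21, adjusted p = 0.000102). GAB1, the docking protein of MET and EGFR, fell at both times (-0.55 and -0.31, adjusted p = 9.6e-05 and 0.00682), and GAB2 fell at 24 h (-0.33, adjusted p = 0.00336, and -0.22 without untreated replicate 1). Of 14 negative regulators, 13 were tested, with 2 higher and 3 lower at 8 h (25.2% and 24.5% of all genes) and 6 higher and 3 lower at 24 h (25.7% and 26.8%). LRIG1, which promotes degradation of ERBB receptors, was at 43.96, 41.8 and 42.2 CPM untreated, 26.8, 24.9 and 26.1 CPM at 8 h, and 48.4, 50.8 and 46.1 CPM at 24 h. It fell at 8 h (-0.72, SE 0.0512, adjusted p = 3.335e-08) and rose at 24 h (0.19, SE 0.0488, adjusted p = 0.00463), opposite to EGFR at both times. ERRFI1 (-0.42 and 0.17, adjusted p = 5.85e-05 and 0.0334) and PTPRJ (-0.42 and 0.30, adjusted p = 2.13e-05 and 0.000401) did the same. The 24 h libraries of ERRFI1 overlapped the untreated ones. ERBB2, unlike EGFR, fell at both times (-0.15 and -0.62), and a link of these regulators to the receptor transcripts was not tested. PTPRF, a receptor phosphatase, fell at 24 h (-0.34, adjusted p = 6.52e-06), as did PTPN1 (-0.27, adjusted p = 1.26e-05), and LRIG2 rose at both times (0.23 and 0.33, adjusted p = 0.00683 and 0.0003535).

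Of 24 genes of the IL6 family, JAKs and STATs other than STAT3, 22 were tested, with 7 higher and 9 lower at 8 h (25.2% and 24.5% of all genes) and 6 higher and 6 lower at 24 h (25.7% and 26.8%). IL11, a cytokine that signals through STAT3, was the most abundant and was at 454, 464 and 483 CPM untreated, 370.2, 386 and 368 CPM at 8 h, and 244, 246 and 240.5 CPM at 24 h. It fell at both times (log2 fold changes -0.32 and -0.94, SE 0.0359 and 0.0363, adjusted p = 3.14e-06 and 2.49e-11). IL6ST, the gp130 receptor chain shared by the family, was at 300.8, 301 and 301 CPM untreated, 298, 265 and 264 CPM at 8 h, and 441, 395 and 476 CPM at 24 h, and rose at 24 h (0.54, SE 0.0583, adjusted p = 1.39e-06). IL6R, the chain particular to IL6, fell at 24 h (-0.70, SE 0.0942, adjusted p = 1.31e-05). IL6 fell at 8 h (-0.91, SE 0.164, adjusted p = 0.000272), with 20.9 CPM in untreated replicate 1 against 11.4 and 13.7 CPM in the other untreated libraries. SOCS1, an inhibitor of JAKs, fell at 8 h (-1.13, SE 0.142, adjusted p = 8.7e-06) from 3.71 ± 0.410 to 1.70 ± 0.267 CPM, whereas CISH, of the same family, rose (0.48, SE 0.118, adjusted p = 0.00334).

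All 14 listed STAT3 target genes were tested, with 4 higher and 7 lower at 8 h (25.2% and 24.5% of all genes) and 5 higher and 4 lower at 24 h (25.7% and 26.8%). The list shares IL6ST and SOCS3 with the preceding one. CEBPD, a transcription factor of the acute-phase response, was at 48.2, 29.7 and 32.6 CPM untreated, 13.0, 16.1 and 14.5 CPM at 8 h, and 51.5, 56.3 and 53.2 CPM at 24 h. It fell at 8 h (log2 fold change -1.34, SE 0.137, adjusted p = 1.18e-06) and rose at 24 h (0.55, SE 0.123, adjusted p = 0.00152), in the same directions as STAT3. BCL3 did so too (-0.48 and 0.45, adjusted p = 0.00114 and 0.00138). SOCS3, at 86.5 ± 1.20 CPM untreated, instead rose at 8 h (0.26, adjusted p = 8.5e-05). Its 24 h value was 0.04 (adjusted p = 0.407). JUNB, an AP-1 factor, rose at 24 h (0.88, SE 0.0973, adjusted p = 1.71e-06) from 73.2 ± 14.2 to 134.7 ± 13.0 CPM. CCND1, cyclin D1, rose at 8 h (0.33, SE 0.0421, adjusted p = 9.71e-06). The kinase PIM1 fell at both times (-0.39 and -0.64, adjusted p = 0.0001496 and 9.47e-07), and the survival factor MCL1 fell at 24 h (-0.40, adjusted p = 2.05e-06). The median log2 fold change of the list was -0.14 at 8 h and 0.05 at 24 h.

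**Figure D4:**
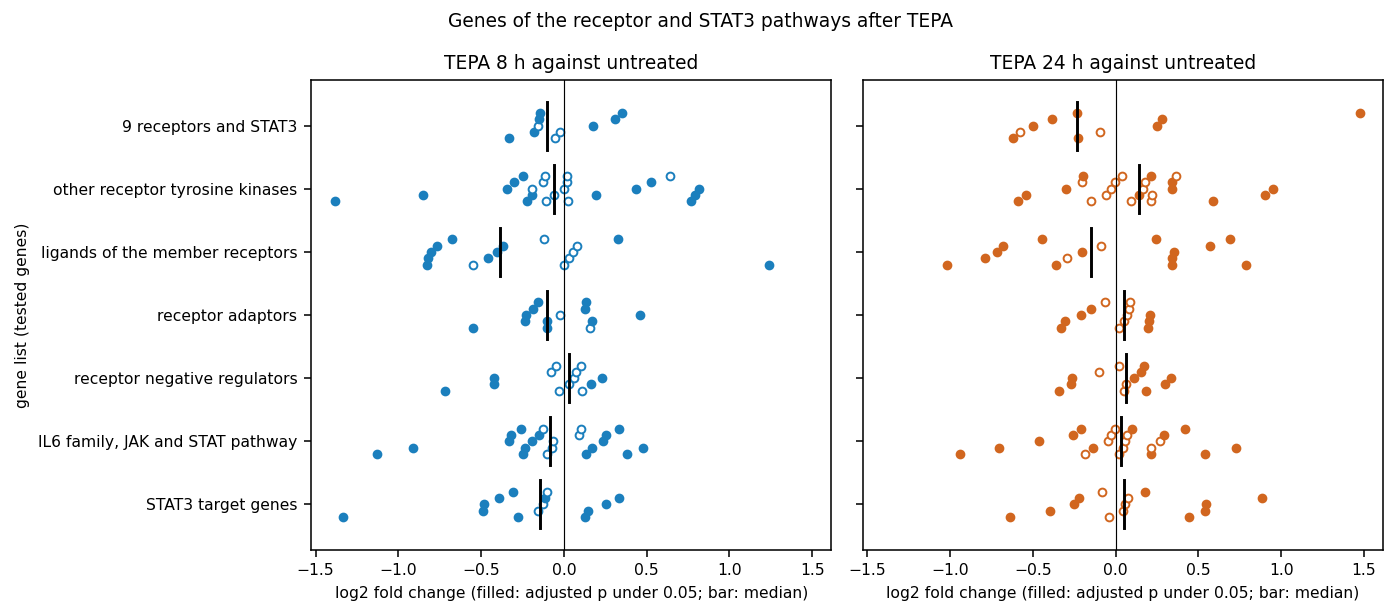
Log2 fold change (x axis) of the tested genes of the 6 lists and of the 9 receptors and STAT3 (y axis) at 8 h and at 24 h against untreated cells. Filled points passed an adjusted p under 0.05 and bars are medians. Each list spreads to both sides of 0, and the ligands have the lowest median at 8 h (-0.39).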

How the data were processed

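RNA-Seq libraries (TruSeq stranded mRNA, paired reads of 100 bases) were analysed. FastQC, HISAT2 with hg38 and featureCounts, counting exon reads by strand under each gene name, were used by the authors. They deposited raw counts without normalization, 1 column per library, and 0 columns were left out. Versions are not given in the sources used here. Counts were fitted in R 4.3.3 with edgeR 4.0.16: filterByExpr (minimum count 10), TMM factors, and one quasi-likelihood model of all 9 libraries without covariates, with Benjamini-Hochberg adjustment over 16556 genes and a threshold of 0.05. The SE is |log2 fold change| over the root of F, and 95% intervals use the model's degrees of freedom. FPKM was computed here from CPM and the exon union of GENCODE on hg38, and gene positions are from the same annotation. The procedure was also run on simulated counts with larger changes than most reported here, so that run does not cover small fold changes.

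The 10 genes and the lists were chosen with earlier results of these data known. The genes named from a list are, per comparison, those with the largest increase and decrease among called genes whose mean count was 100 or more and whose groups did not overlap, and the 2 with the highest mean CPM. Marker genes, NRG2, EGF, FGF1, BCL3, SOCS3, ERRFI1, PTPRJ, STAT5A beside STAT3 and CSF1R beside PDGFRB were described further after their values were seen. The alternatives were RLE and upper-quartile factors, no filter, 10 counts in every library, DESeq2 1.42.0, only the 2 groups compared, a log2 fold limit of 0.5, a replicate block, and fits without each of the 9 libraries. One marker gene of the lists is not reported here.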

Additional observations from a re-analysis of the deposited data

Results flagged for a closer look

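Levels after 24 h of TEPA differed from those after 8 h for 8 of the 10 genes by edgeR's test of 24 h against 8 h. With Benjamini-Hochberg adjustment over all genes tested, that test called 26.0% of all genes higher and 28.8% lower. A single untreated group served both times, so time in culture and time in TEPA cannot be told apart in this comparison. EGFR was lower at 24 h than at 8 h by a log2 fold change of -0.56 (adjusted p = 2.23e-07), AXL by -0.55 (adjusted p = 1.03e-06) and MET by -0.58 (adjusted p = 3.8e-09). ERBB2 differed by -0.47 (adjusted p = 1.04e-06) and FGFR1 by -0.32 (adjusted p = 4.46e-06). PDGFRB was 3.49-fold higher at 24 h than at 8 h (log2 fold change 1.80, adjusted p = 9.39e-10), EPHA2 higher by 0.30 (adjusted p = 8.22e-06) and STAT3 by 0.40 (adjusted p = 3.23e-07). In each of the 8, no library of one time overlapped the other.

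Among other receptors the same comparison gave 1.19 for CSF1R, -0.53 for PTK7, -0.64 for EPHA4, -0.22 for EPHB2 and 0.25 for EPHB4. Among ligands it gave 0.41 for TGFA, 0.54 for AREG, -0.73 for GAS6 and 0.49 for PDGFD. Among adaptors it gave -0.34 for IRS2, 0.26 for SOS2, -0.25 for PLCG1, 0.10 for SHC1 and 0.24 for GAB1. The call of SHC1 was lost without TEPA 8 h replicate 1 or 3 or TEPA 24 h replicate 1 or 2 (0.08 to 0.11, adjusted p = 0.0563 to 0.0984), and that of GAB1 without TEPA 8 h replicate 1 or 3 or TEPA 24 h replicate 3 (0.18 to 0.22, adjusted p = 0.0883 to 0.13). Among negative regulators it gave 0.90 for LRIG1, -0.20 for PTPN1 and -0.41 for PTPRF. In the IL6 and JAK-STAT list it gave 1.18 for IL6, -0.62 for IL11, -0.80 for IL6R, 0.67 for IL6ST, 0.80 for STAT5A, 1.15 for SOCS1 and -0.50 for CISH. Among STAT3 target genes it gave -0.25 for PIM1, 1.04 for JUNB, 1.88 for CEBPD, -0.27 for CCND1 and -0.28 for MCL1.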

How the results depend on the processing

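Of the 10 genes, 7 passed the test at 8 h, 8 at 24 h and 8 between the times, and with the limit of 0.5 on the log2 fold change 0, 3 and 4 did, beside 2943, 3095 and 3505 of all genes in place of 8216, 8688 and 9079. Over the alternatives without a fold limit that kept all libraries, the counts were 7, 8 or 9, and 8, the 9 with the filter of 10 counts in every library, where ERBB3 passed at 24 h (-0.57, adjusted p = 0.0481). Leaving out 1 library gave 5 to 7, 8 to 10, and 8 to 8. Of 390 fold changes of the 10 genes under the alternatives, 381 kept their direction and side of the threshold, 3 passed it newly, 5 no longer passed and 1 reversed: ERBB3 at 8 h, which ran from -0.31 to 0.0347 when 1 library was left out. The adaptors higher at 24 h were 6 in place of 3 with upper-quartile factors, and those higher at 8 h 2 in place of 4 without a filter or without TEPA 8 h replicate 1. Between the times, 3 in place of 5 were higher without that library. The cause was not tested. Same-numbered libraries did not deviate together (correlations of deviations from -0.0801 to 0.0383 over 9 pairs), so the numbers were not read as pairs, and with the replicate number as a block 7, 8 and 8 of the 10 passed. The depth limits ERBB3, with 23 to 42 counts a library.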
